A study of Mus musculus with 20 samples.

Results

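The interleukin-1 (IL-1) family was followed through 9 genes: the ligand genes Il1f6 (also named Il36a, which encodes IL-36 alpha), Il1b, Il18 and Il33, the antagonist gene Il1rn, the receptor genes Il1r1 and Il1rl1, the decoy receptor gene Il1r2 and the coreceptor gene Il1rap. They were chosen by name, with their levels in the comparison of loss-of-Y and Control kidneys already known, and all 9 were found among the 26608 genes of the first count table and the 30809 genes of the second. The values of these 9 genes in that comparison are therefore a description and carry no test.

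Bulk total-RNA sequencing was done on kidneys of aged mice that had received a bone marrow transplant, so that the blood-forming cells were either Control or had lost the Y chromosome (LOY) while the kidney itself was the host's. The first table held 6 Control kidneys and 6 LOY kidneys, with no compound named for either. The second held kidneys from LOY mice only, 4 given a control compound and 4 given ABT-263, an inhibitor of BCL-2 family proteins that is used as a senolytic, that is, to kill senescent cells. Each library was 1 animal, and the sources used here do not give strain, sex, exact age, dose, schedule or the way the Y chromosome was removed.

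IL-1 family ligands are cytokines made by myeloid cells, epithelia and stroma. IL-1 beta and IL-18 are made as precursors that inflammasome caspases cut, IL-33 is held in the nucleus and released from damaged cells, and IL-36 alpha is best known from epithelia such as the skin and has also been described in injured kidney tubules. Each ligand binds its own receptor chain and then a second chain, the shared coreceptor IL-1RAP for IL-1, IL-33 and IL-36, and the receptors pass the signal through MyD88 and IRAK kinases to NF-kB. The antagonist encoded by Il1rn occupies IL-1R1 without signalling, and IL-1R2 binds IL-1 but does not signal.

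The depth was 13332563 to 19386408 gene counts per library in the first table and 14587809 to 20791633 in the second. Markers of kidney epithelium (Slc34a1, Lrp2, Umod, Slc12a1, Slc12a3 and Aqp2) were present in every group. The 4 Y-linked genes Ddx3y, Uty, Kdm5d and Eif2s3y, which host kidney cells would still carry, summed to 168 to 192 CPM in Control and 141 to 174 CPM in LOY kidneys, so these bulk levels do not check the loss in blood cells. Animal numbers were not spread evenly over the groups: 5 of 6 Control kidneys and 2 of 6 LOY kidneys had numbers above 10, and in the second table all control-compound animals had numbers of 10 or lower and all ABT-263 animals numbers above 10. The labels do not call the number a batch, and in the second table it cannot be told apart from the treatment. The tables were counted separately and levels were not tested between them.

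Per kilobase of exon, Il33 had the highest mean level of the 9 genes in all 4 groups. In CPM per kilobase (CPM being a gene's share of a library's counts, scaled to a common total), its level was 3.57 ± 0.459 for the Control and 4.58 ± 1.35 for the LOY group (SD, n = 6 each), and 4.79 ± 0.404 with control compound and 4.04 ± 0.857 with ABT-263 (SD, n = 4 each). Il18 was second in the first table, at 2.47 ± 0.443 in Control and 3.43 ± 0.584 in LOY kidneys, and Il1r1 was second in the second table, at 2.58 ± 0.382 and 2.66 ± 0.491. At the low end stood Il1r2 in all 4 groups, at 0.0754 ± 0.0916 in Control kidneys, with Il1rl1 next at 0.143 ± 0.083. Neighbours in this order were often within each other's spread: in Control kidneys the middle members were Il1rap at 0.745 ± 0.14, Il1b at 0.581 ± 0.266 and Il1f6 at 0.519 ± 0.358. Il1f6 stood at rank 6 of 9 in Control kidneys and at rank 3 of 9 in LOY kidneys, where its 3.33 ± 3.12 had an SD nearly as large as the mean.

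The comparison of LOY with Control kidneys asks how kidney transcripts differ when the blood-forming cells lack the Y chromosome. All 8 members with enough counts to fit were higher on average in LOY kidneys, with a median log2 difference of 0.598, where the median over all 14978 genes tested was 0.0187 and 52.3% of them were higher. The members of highest difference were the ligands Il1f6 and Il1b and the antagonist Il1rn. Of the 8, 2 passed the edgeR threshold of an adjusted p of 0.05 (Il1f6 and Il1b), beside 1.11% of all genes tested that passed it in this direction; since the members were chosen on this contrast, nothing is read from that count. DESeq2 and limma-voom each called 3, these 2 and Il1rn, beside 5.78% and 7.09% of all genes tested, called in either direction. At an adjusted p of 0.1 edgeR called the same 3, beside 3.67%. In bulk kidney, more cells of a type and more RNA per cell cannot be told apart.

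**Figure D1:**
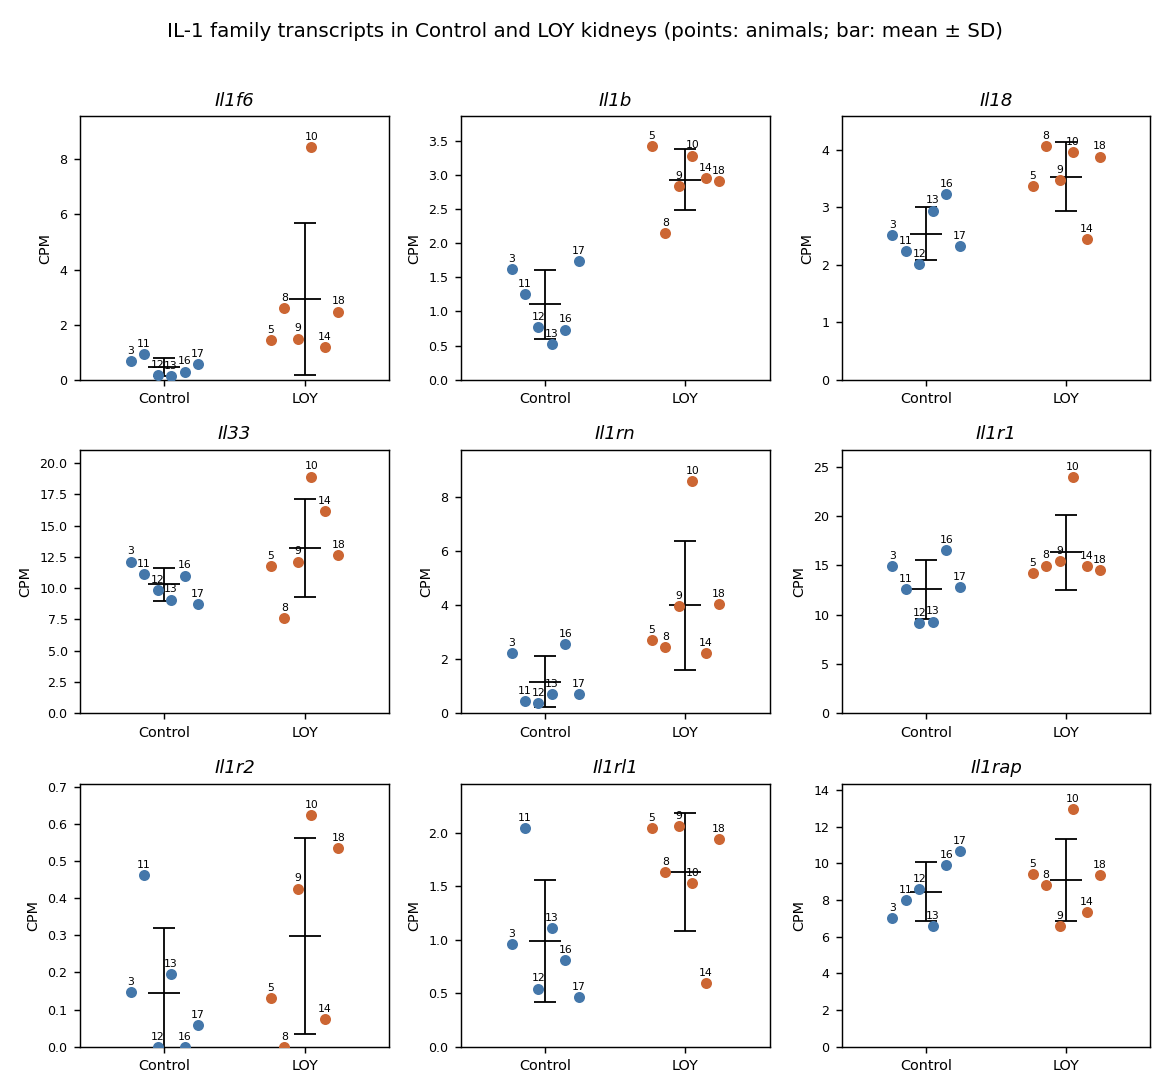
Each panel shows 1 member of the IL-1 family in the first table, with CPM per kidney on the vertical axis. Points are single kidneys (6 Control and 6 LOY), and bars give the mean and SD. The LOY points lie above all Control points for Il1f6 and Il1b, while the groups overlap for the other members.

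Il1f6, at chr2:24215418-24225702 on the plus strand (GRCm38), was near the limit of counting in Control kidneys, with 2 to 14 counts per kidney, and reached 16 to 149 counts in LOY kidneys. Its level was lowest at 0.131, with a median of 0.437 and a highest value of 0.924 CPM, in Control kidneys, and 1.18, 1.98 and 8.44 CPM in LOY kidneys. Every LOY kidney was above every Control kidney, and LOY animal 10 stood well above the other LOY kidneys, the next of which was at 2.59 CPM. The mean was 0.458 ± 0.317 CPM for the Control group and 2.94 ± 2.76 CPM for the LOY group (SD, n = 6 each), a fitted log2 difference of 2.66 ± 0.58 (SE). Without LOY animal 10 the log2 difference was 1.96.

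Il1b, at chr2:129364570-129371139 on the minus strand, encodes the main secreted IL-1 agonist of myeloid cells. Its lowest, median and highest levels were 0.523, 1.01 and 1.74 CPM in Control kidneys and 2.15, 2.94 and 3.43 CPM in LOY kidneys. The groups did not overlap, and the 6 LOY kidneys lay close together, unlike for Il1f6. The mean was 1.11 ± 0.507 CPM without and 2.93 ± 0.447 CPM with LOY (SD, n = 6 each), a log2 difference of 1.39 ± 0.30 (SE). Groups that did not overlap, with LOY higher, were seen for 2 of the 8 fitted members and for 1.56% of all genes tested. Since the members were chosen on this contrast, nothing is read from that count. An annotated antisense gene, Il1bos, overlaps Il1b over 1243 bases, and the sources used here do not say whether counting used strand. In the second table, where Il1bos was listed, it had 4 to 15 counts per kidney against 31 to 115 for Il1b. The limit is not particular to Il1b, since 5 of the 9 members overlap another annotated gene: Il1b, Il18, Il1r1, Il1r2 and Il1rap. By gene span, Il18 shares 4507 bases with the protein-coding Tex12 and Il1rap 15672 bases with the antisense Gm20319.

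The stretch directly upstream of Il1b is shown beside that of Il1rn because both genes act on the same receptor, 1 as agonist and 1 as antagonist. They are the 250 bases before an annotated start, the only one in the table for Il1b and the first of 3 for Il1rn, from RefSeq on GRCm38.p6, read 5′ to 3′ on each gene's own strand, at chr2:129371140-129371389 (minus strand) for Il1b and chr2:24336610-24336859 (plus strand) for Il1rn. Capitals mark letters that match a searched motif.
Il1b: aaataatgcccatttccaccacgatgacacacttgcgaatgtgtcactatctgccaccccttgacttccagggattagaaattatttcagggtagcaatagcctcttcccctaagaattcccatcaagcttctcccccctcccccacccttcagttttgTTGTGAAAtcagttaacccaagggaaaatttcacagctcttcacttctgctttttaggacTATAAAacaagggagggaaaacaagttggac
Il1rn: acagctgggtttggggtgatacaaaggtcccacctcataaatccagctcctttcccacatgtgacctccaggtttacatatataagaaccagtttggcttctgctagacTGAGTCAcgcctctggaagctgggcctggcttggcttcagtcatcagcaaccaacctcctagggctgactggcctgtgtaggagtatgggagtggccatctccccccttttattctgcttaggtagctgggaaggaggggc
The motifs searched on both strands were an NF-kB consensus, an AP-1 site (TGANTCA), a C/EBP site (TTNNGNAA), a PU.1 core (GAGGAA) and TATAAA. The Il1b stretch held a C/EBP match 91 to 84 bases and TATAAA 31 to 26 bases before the start. The Il1rn stretch held an AP-1 match 141 to 135 bases before the start, read on both strands since the motif is its own reverse complement. The stretches before the other 2 Il1rn starts, not printed, each held at least 1 C/EBP match and no AP-1 match. Over 32851 promoter stretches of the same length, 36.8% held the C/EBP motif, 12.4% TATAAA, 6.75% the AP-1 motif, 23.3% the PU.1 core and 3.9% the NF-kB consensus. A match is only a match of letters in this window. Stretches were at hand for 8 of the 9 members, all but Il1f6.

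Il18, on chromosome 9, encodes an inflammasome-processed cytokine that acts on T and NK cells. It ranged from 2.02 to 3.23 CPM (median 2.42) in Control kidneys and from 2.44 to 4.07 CPM (median 3.68) in LOY kidneys. The groups overlapped, although 5 of 6 LOY kidneys were above all Control kidneys. The log2 difference was 0.48 ± 0.20 (SE). Il33, on chromosome 19, encodes the alarmin that signals through the receptor encoded by Il1rl1. Its levels ran from 8.70 to 12.1 CPM (median 10.4) in Control kidneys and from 7.62 to 18.9 CPM (median 12.4) in LOY kidneys. The LOY range held the whole Control range within it, and the log2 difference was 0.36 ± 0.19 (SE), or 0.21 without LOY animal 10.

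Il1rn, the antagonist gene, lies at chr2:24336853-24351494, in the same gene cluster as Il1f6, from which Il36rn and Il1f10 separate it; Il1a lies 104948.1 kb further along the chromosome, with Il1b after it. Its lowest, median and highest levels were 0.388, 0.708 and 2.57 CPM in Control kidneys and 2.22, 3.34 and 8.61 CPM in LOY kidneys. Of the LOY kidneys, 4 of 6 were above all Control kidneys, and LOY animal 10 was again the highest. The mean was 1.18 ± 0.958 CPM for the Control group and 3.996 ± 2.39 CPM for the LOY group (SD, n = 6 each), a log2 difference of 1.78 ± 0.49 (SE). The antagonist transcript was thus higher beside the agonist transcript, and their log2 ratio within a kidney, Il1rn over Il1b with 0.5 added to each count, was -0.16 ± 1.24 for the Control and 0.29 ± 0.66 for the LOY group (SD, n = 6 each). The ratio's ranges overlapped widely.

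The receptor genes Il1r2, Il1r1 and Il1rl1 lie in this order on the plus strand of chromosome 1, between 40074079 and 40465415, with Il1rl2 between the latter pair and Il18r1 and Il18rap after them. Il1r1, the signalling receptor of IL-1, ranged from 9.15 to 16.6 CPM (median 12.7) in Control and from 14.2 to 23.96 CPM (median 14.9) in LOY kidneys. Only LOY animal 10 was above all Control kidneys, and the log2 difference was 0.38 ± 0.18 (SE), or 0.22 without that animal. Il1rl1, the IL-33 receptor, ran from 0.464 to 2.05 CPM (median 0.884) in Control and from 0.592 to 2.06 CPM (median 1.79) in LOY kidneys. The groups overlapped over nearly their whole range, with Control animal 11 at 2.05 CPM and LOY animal 14 at 0.592 CPM. The log2 difference was 0.72 ± 0.39 (SE). With 1 kidney left out it ran from 0.56 (without Control animal 17) to 1.07 (without Control animal 11). Il1rap, the shared coreceptor on chromosome 16, showed the smallest difference of the 8, 0.10 ± 0.18 on the log2 scale (SE) and -0.04 without LOY animal 10, at 6.60 to 10.7 CPM in Control and 6.60 to 13.0 CPM in LOY kidneys. The decoy receptor gene Il1r2 had too few counts to fit, with 13 counts over the Control kidneys (0 to 7 in each) and 31 over the LOY kidneys (0 to 11 in each).

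**Figure D2:**
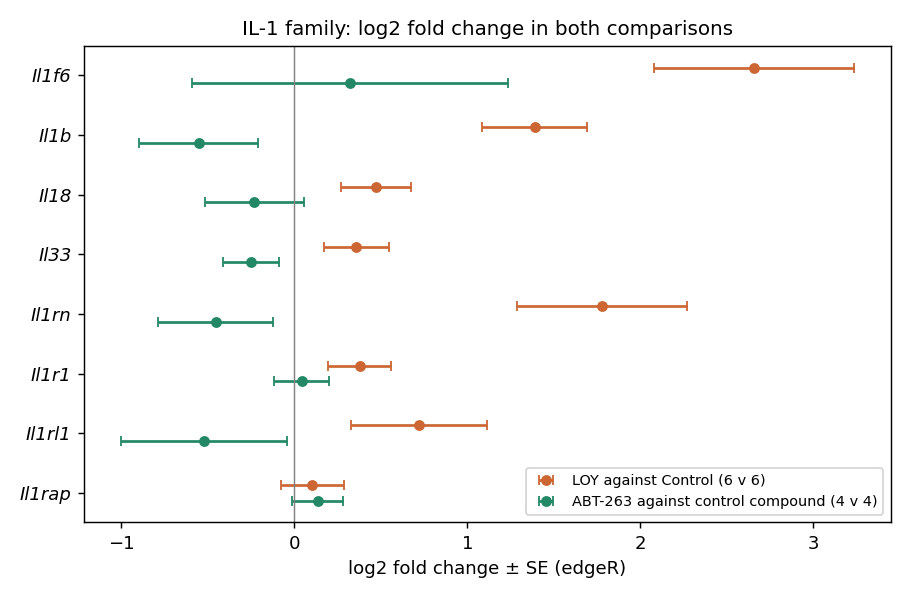
Fitted log2 differences of the 8 members with enough counts, for LOY against Control (6 kidneys each) and for ABT-263 against control compound (4 kidneys each) on the horizontal axis; bars give the SE. Il1f6, Il1rn and Il1b have the highest values in the first comparison, and no member passed the test in the second.

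Markers of several other cell types differed in level between the same groups. The summed level of 9 macrophage markers was 220 to 358 CPM in Control and 395 to 531 CPM in LOY kidneys, and that of 4 monocyte markers 22.3 to 36.7 and 44.6 to 86.0 CPM, with no overlap and no marker at 0. The macrophage markers did not move alike. Csf1r, the highest of them in Control kidneys, had means of 104 CPM in Control and 107 CPM in LOY kidneys. Lyz2 had means of 71.1 and 165 CPM. The 5 T cell markers summed to 6.74 to 9.80 CPM in Control and 14.6 to 22.1 CPM in LOY kidneys, again without overlap, while the 10 neutrophil markers overlapped at 3.52 to 9.76 and 5.73 to 13.5 CPM. The 7 injured-tubule markers, which include Havcr1, Lcn2 and Spp1, summed to 1760 to 3540 CPM in Control and 3510 to 8630 CPM in LOY kidneys. This sum was mostly Spp1, with means of 1660 CPM in Control and 3940 CPM in LOY kidneys. Of the 6 mast cell and basophil markers, Fcer1a, Mcpt4 and Mcpt8 were at 0 in every Control kidney and Fcer1a, Cma1 and Tpsb2 in every LOY kidney, and the sum did not exceed 0.814 CPM. The 5 fibroblast markers did not move alike. In Control and LOY kidneys, means were 50.3 and 104 CPM for Col1a1, 48.9 and 67.7 CPM for Dcn and 43.3 and 43.2 CPM for Pdgfra. The fibroblast markers summed to 159 to 274 CPM in Control and 247 to 398 CPM in LOY kidneys. The 6 kidney epithelium markers above went the other way, with a sum of 11000 to 16600 CPM (median 15500) in Control and 7180 to 13500 CPM (median 11100) in LOY kidneys. Urothelial markers (6) gave 10.1 to 76.2 and 28.0 to 87.4 CPM, and squamous epithelium markers (5), of which Krt6a and Dsg3 were at 0 in every Control kidney, 5.19 to 51.5 and 22.2 to 86.3 CPM. The squamous sum was mostly Sprr1a, with means of 18.5 CPM in Control and 39.8 CPM in LOY kidneys. Over the LOY kidneys Krt6a had 4 counts and Dsg3 had 2.

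Set against the macrophage and monocyte markers, the Il1b ranges of the 2 groups overlapped. Per 1000 counts of those markers, Il1b had 1.62 to 6.67 counts (median 3.66) in Control kidneys and 3.70 to 7.195 counts (median 5.52) in LOY kidneys. The overlap came from Control animal 17, at 6.67, and LOY animal 8, at 3.70. With group means taken off, Pearson's r of Il1b over the 12 kidneys was 0.116 with the macrophage sum and 0.097 with the monocyte sum. Il1rn had 1.53 to 9.16 counts (median 2.45) in Control and 4.02 to 14.0 counts (median 6.76) in LOY kidneys on the same measure, with overlap as well. The part of these cells, and of the injured-tubule markers, in the higher member levels was not tested further.

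**Figure D3:**
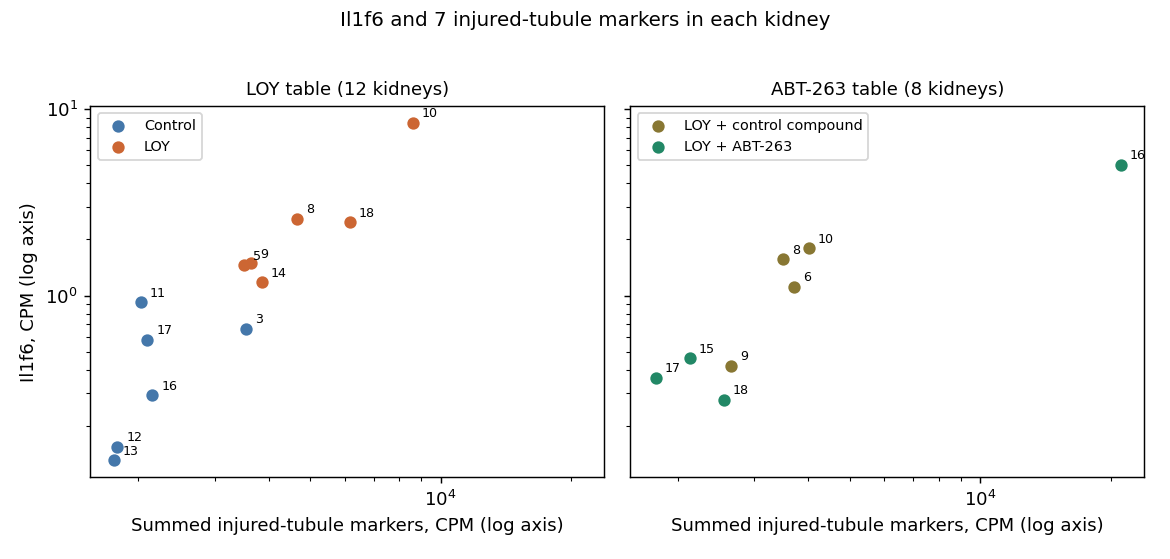
Il1f6 in CPM (vertical log axis) against the sum of 7 injured-tubule markers in CPM (horizontal log axis), 1 point per kidney, with a panel for each table and the groups marked. LOY animal 10 and ABT-263 animal 16 are the kidneys with the highest Il1f6, at 8.44 and 5.03 CPM. The sum is mostly Spp1. Over the 12 kidneys of the first table, with group means taken off, Pearson's r of Il1f6 was 0.791 with this sum. It was 0.824 with the sum of the fibroblast markers.

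Beyond the 9 members, 63 genes of the IL-1 pathway were examined in lists drawn up from textbook roles, and 42 had enough counts. In LOY against Control, 7 of the 42 rose and 0 fell by edgeR's test, beside 1.11% of all genes tested that rose and 0.0601% that fell. DESeq2 and limma-voom each called 14 of them higher and 0 lower, beside 5.78% (866) and 7.09% (1062) of all genes tested. The lists, like the members, were drawn up with earlier results of these data known, so these counts and p-values are not independent support for a direction. At an unadjusted p under 0.05 there were 24 of the 42, beside 22.8% of all genes tested.

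The rise was mostly among genes that IL-1 is known to induce. By edgeR, 6 of 12 tested rose, beside 1.11% of all genes tested. DESeq2 and limma-voom each called 8 higher, beside 5.78% and 7.09% of all genes tested, called in either direction. All 12 had a positive log2 difference, beside 52.3% of all genes tested, and the median was 0.906. Vcam1, an adhesion molecule for leukocytes, rose from 33.5 ± 11.2 to 82.6 ± 24.6 CPM (SD, n = 6 each), by 1.30 ± 0.22 on the log2 scale (edgeR adjusted p = 0.0250). Icam1, a ligand of leukocyte integrins, rose from 42.8 ± 6.26 to 74.7 ± 18.7 CPM, by 0.80 ± 0.16 (edgeR adjusted p = 0.0330). Cebpd, an acute-phase transcription factor gene, rose from 13.2 ± 3.91 to 26.6 ± 6.82 CPM, by 1.01 ± 0.21 (edgeR adjusted p = 0.0375). The others that rose by edgeR were the chemokine genes Ccl2 and Cxcl1 and the iron-siderophore-binding Lcn2. Lcn2 and Vcam1 also stand in the injured-tubule list, whose summed level moved with them, and many other signals than IL-1 are known to induce these 6 genes.

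All 8 tested genes of inflammasomes and ligand processing had a positive difference, beside 52.3% of all genes tested, and the median was 0.671. DESeq2 called 3 of the 8 higher and limma-voom 2, beside 5.78% and 7.09% of all genes tested, called in either direction. By edgeR, 1 of the 8 rose, beside 1.11% of all genes tested. This was Casp4, which encodes the caspase that senses cytosolic lipopolysaccharide (named caspase-11 in mice), at 4.31 ± 1.06 CPM for the Control and 10.1 ± 4.50 CPM for the LOY group (SD, n = 6 each), a log2 difference of 1.22 ± 0.27 (edgeR adjusted p = 0.0455) between groups that did not overlap. Of the 14 genes between receptor and NF-kB, 0 passed edgeR's test, 4 had an unadjusted p under 0.05, and DESeq2 called 2 and limma-voom 3, beside those tools' 5.78% and 7.09% over all genes; the median was -0.108. The lowest p in this list belonged to Myd88, the adaptor gene, with a difference of 0.46 ± 0.12 (edgeR adjusted p = 0.0620).

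Of the other receptor genes of the family, 0 of 5 tested passed by edgeR, DESeq2 or limma-voom, with 2 at an unadjusted p under 0.05 by each tool. Il18r1, a chain of the IL-18 receptor, had the lowest p, at 3.44 ± 1.13 CPM for the Control and 5.66 ± 1.59 CPM for the LOY group (SD, n = 6 each), a difference of 0.72 ± 0.25 (edgeR adjusted p = 0.147). In the list drawn up for lymphoid cells that answer to IL-33 and IL-18, 0 of 3 tested genes passed edgeR's test. Of these, 2 had an unadjusted p under 0.05, Il7r with higher and Rora with lower levels in LOY kidneys. Rora had means of 4.8 CPM in Control and 2.6 CPM in LOY kidneys, a log2 difference of -0.86 ± 0.38 (edgeR adjusted p = 0.204). DESeq2 and limma-voom each called Il7r, an IL-7 receptor gene, whose log2 difference was 1.25 ± 0.33 (edgeR adjusted p = 0.0702). Which cells the 3 genes came from was not tested. None of the 5 other ligand and ligand-like genes (Il1a, Il36b, Il36g, Il36rn and Il1f10) had enough counts to be tested.

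**Figure D4:**
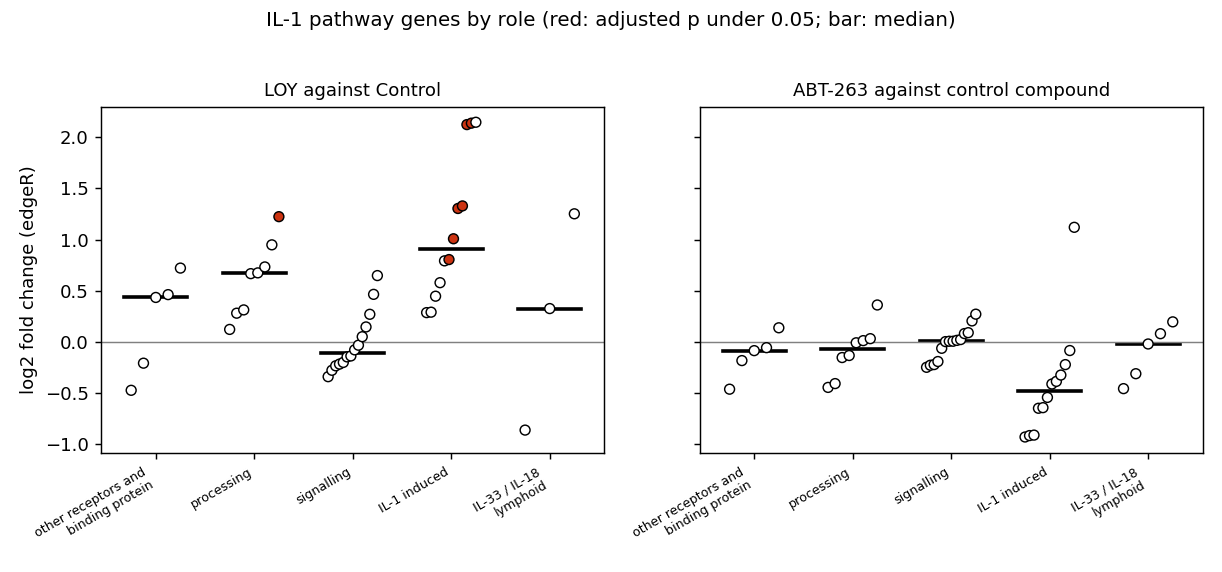
Log2 differences of the tested pathway genes, grouped by list (red points passed edgeR's test, bars are list medians), in LOY against Control and in ABT-263 against control compound, each point a gene. The genes that IL-1 induces are all above 0 in the first comparison, and 11 of 12 are below 0 in the second, where none passed the test.

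These calls rest on the whole set of kidneys. The pathway count was 0 without Control animal 11, 12, 13, 16 or 17 or LOY animal 10, 3 without LOY animal 9 and 12 without Control animal 3. With a term for animal numbers above 10 it was 0, and among the animals numbered above 10 alone, 5 Control and 2 LOY kidneys, it was 11, beside 2.89% of all genes tested.

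The comparison of ABT-263 with the control compound asks whether a senolytic changes the kidney transcripts of LOY mice. By edgeR, 0 of the 8 members with enough counts passed, 0 had an unadjusted p under 0.05, and DESeq2 and limma-voom called 0 as well, with limma-voom giving 2 at an unadjusted p under 0.05. The share of all 16956 genes tested that passed edgeR's test was 0%, while 1002 genes, 5.91%, had an unadjusted p under 0.05, and DESeq2 called 44 (0.259%) and limma-voom 11 (0.0649%). Of the members, 3 had a positive and 5 a negative difference, with a median of -0.239 where the median over all genes was -0.00278. None of the 8 had groups that did not overlap, beside 2.04% of all genes tested with ABT-263 higher and 2.25% with ABT-263 lower. These counts do not show that the levels were equal.

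**Figure D5:**
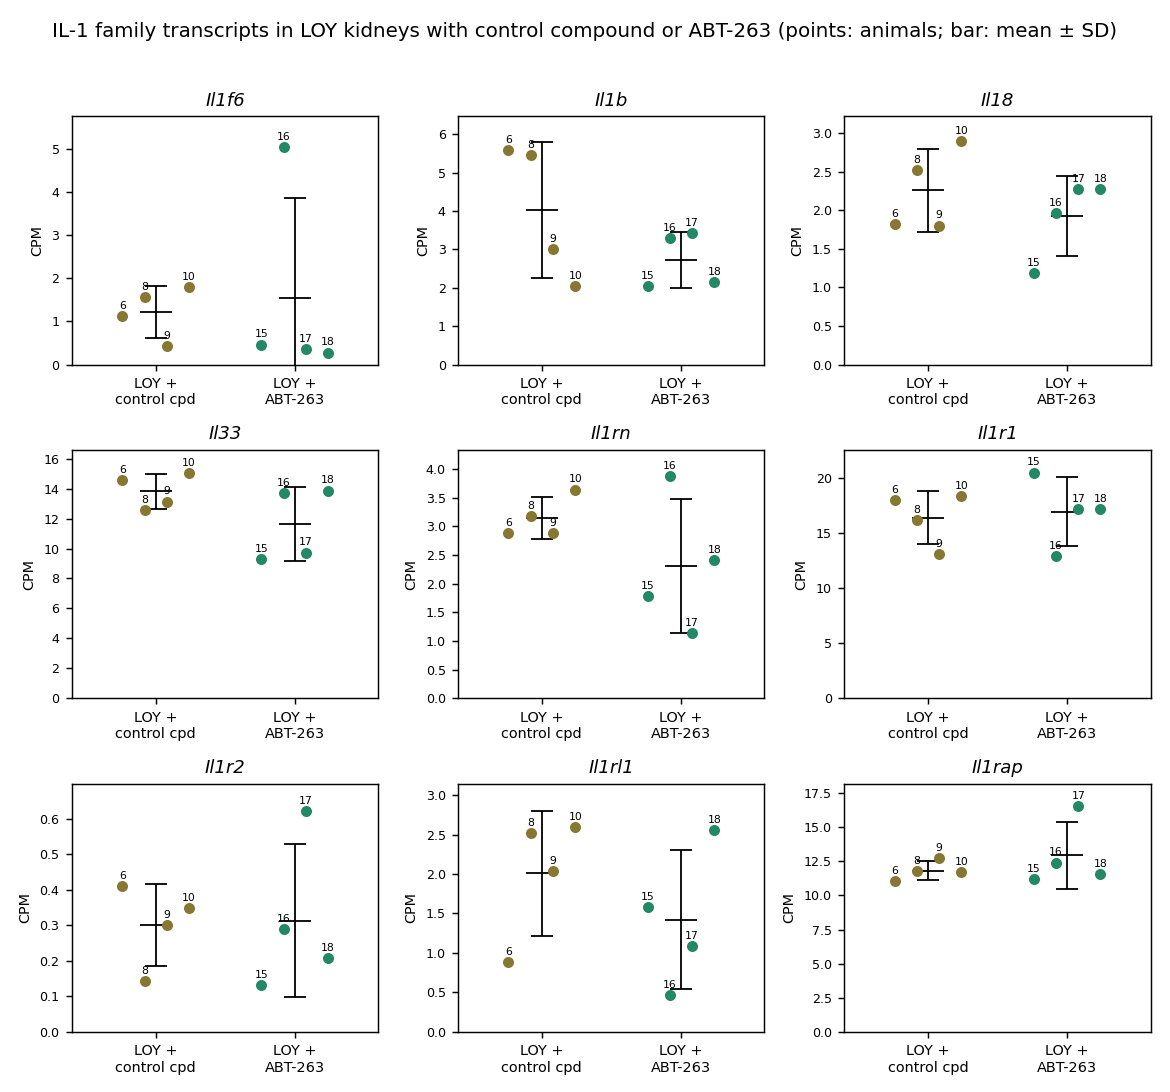
Each panel shows 1 member in the second table, with CPM per kidney on the vertical axis, for 4 LOY kidneys with control compound and 4 with ABT-263. Points are kidneys and bars give the mean and SD (cut off at the axis where it would pass below 0). The groups overlap in every panel, and ABT-263 animal 16 is far above the other kidneys for Il1f6.

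Il1f6 stood at 1.12, 1.57, 0.42 and 1.79 CPM in control-compound animals 6, 8, 9 and 10, and at 0.46, 5.03, 0.36 and 0.28 CPM in ABT-263 animals 15, 16, 17 and 18. Of the ABT-263 kidneys, 3 lay near or below the lowest control-compound kidney, and animal 16 was above all of them. The log2 difference was 0.32 ± 0.91 (edgeR adjusted p = 0.971), and without animal 16 it was -1.73 ± 0.54 (edgeR adjusted p = 0.417). Animal 16 had the highest level of the table for 5 of the 7 injured-tubule markers (Havcr1, Lcn2, Sox9, Spp1 and Clu). Its Lcn2 was 254 CPM where the other ABT-263 kidneys had 18.3 to 18.8 CPM and the control-compound kidneys 15.4 to 47.8 CPM, and its Havcr1, which encodes the tubule injury marker KIM-1, was 735 CPM where they had 28.1 to 55.0 and 50.6 to 119 CPM. The other 2 were not highest there: Krt20 was 13.9 CPM, with up to 15.5 CPM under control compound, and Vcam1 was 44.1 CPM, with 38.6 to 102 CPM under control compound. The list, mostly Spp1, summed to 21100 CPM in this kidney and to 2650 to 4010 CPM in the control-compound kidneys. Its part in the Il1f6 value was not tested beyond leaving it out.

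Il1b stood at 5.58, 5.46, 3.00 and 2.04 CPM with control compound and at 2.04, 3.29, 3.42 and 2.14 CPM with ABT-263. Animals 6 and 8 with control compound were above all ABT-263 kidneys, and the other 2 were within or at the edge of their range. The log2 difference was -0.55 ± 0.34 (edgeR adjusted p = 0.847); it was -0.36 without animal 6 and -0.37 without animal 8. The summed macrophage markers were 382 to 655 CPM with control compound and 358 to 407 CPM with ABT-263, and per 1000 macrophage and monocyte marker counts Il1b had 2.89 to 10.9 counts (median 7.56) and 4.63 to 8.26 counts (median 6.32).

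Il1rn stood at 2.88, 3.18, 2.88 and 3.64 CPM with control compound and at 1.78, 3.87, 1.14 and 2.42 CPM with ABT-263. In 3 of 4 ABT-263 kidneys it was below every control-compound kidney, and in animal 16 it was above them all. The log2 difference was -0.45 ± 0.33 (edgeR adjusted p = 0.858); it was -0.83 without animal 16 and -0.22 without animal 17. The log2 ratio of Il1rn to Il1b was -0.24 ± 0.81 with control compound and -0.34 ± 0.84 with ABT-263 (SD, n = 4 each), a difference of -0.10 (exact two-sided permutation test over 70 splits, p = 0.886, adjusted over 2 ratios 0.943). The ratio of the decoy Il1r2 to Il1r1 was -5.73 ± 0.60 and -5.80 ± 0.97 (SD, n = 4 each), a difference of -0.07 (exact two-sided permutation test, p = 0.943, adjusted 0.943). The lowest p this design can give is 0.0286.

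Il33 stood at 14.6, 12.6, 13.1 and 15.1 CPM with control compound and at 9.30, 13.7, 9.73 and 13.9 CPM with ABT-263, a log2 difference of -0.25 ± 0.16 (edgeR adjusted p = 0.848). ABT-263 animals 15 and 17 were below all control-compound kidneys, and animals 16 and 18 were among them. Il18 differed by -0.23 ± 0.29 (edgeR adjusted p = 0.923), Il1rl1 by -0.52 ± 0.48 (edgeR adjusted p = 0.889), Il1rap by 0.14 ± 0.15 (edgeR adjusted p = 0.910) and Il1r1 by 0.04 ± 0.16 (edgeR adjusted p = 0.979) on the log2 scale (SE), each with overlapping groups. With 1 kidney left out, Il18 ran from -0.32 to -0.06 (without animal 15) and Il1rl1 from -0.96 (without animal 18) to -0.22 (without animal 16), and Il33 was -0.15 without animal 15. Il1r2 had 22 counts over each group and was not tested.

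Of the 63 pathway genes, 44 were tested in the second table, and 0 passed by edgeR, DESeq2 or limma-voom, with 5 at an unadjusted p under 0.05 by edgeR. The IL-1-induced genes had a negative difference in 11 of 12, with a median of -0.477, and Tnfaip3, which encodes the NF-kB inhibitor A20, had the lowest p, at 16.9 ± 3.69 CPM with control compound and 11.6 ± 1.26 CPM with ABT-263 (SD, n = 4 each), a difference of -0.54 ± 0.17 (edgeR adjusted p = 0.662). The exception was Lcn2, at 1.12 ± 1.05 (edgeR adjusted p = 0.893), whose value came with the high level of animal 16. The lists of receptors (median -0.0857 over 5), processing genes (-0.0711 over 8), signalling genes (0.00619 over 14) and lymphoid genes (-0.0205 over 5) lay close to the median of all genes. Their genes of lowest p were Il18r1 at -0.46 ± 0.22 (edgeR adjusted p = 0.827), the DNA sensor gene Aim2 at -0.45 ± 0.25 (0.847), the kinase adaptor gene Tab2 at -0.22 ± 0.10 (0.827) and the transcription factor gene Gata3 at 0.20 ± 0.13 (0.854). In the lymphoid list, Gata3 and Rora had means of 14.4 and 77.0 CPM with control compound, beside 1.66 CPM for the T cell marker Cd3e. Which cells these genes came from was not tested.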

How the data were processed

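Kidney RNA was sequenced in 20 libraries, 1 animal each, and the authors deposited 2 tables of raw read counts per gene, with no normalization. Per the submitters' processing notes, the build is mm10; for aligner, counter, annotation and strand the sources used here give nothing. Reads without a gene name (0.223% to 0.401% per library of the first table) were left out. No per-sample column was unused. The members and lists were chosen with earlier results of these data known.

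Each table was fitted alone with edgeR 4.0.16 in R 4.3.3 (filterByExpr with a minimum count of 10 and total of 15, TMM factors, robust quasi-likelihood F test, Benjamini-Hochberg adjustment over all genes tested, threshold 0.05), after the procedure had been tested on simulated data. CPM used TMM-scaled totals. DESeq2 1.42.0, limma 3.58.1 (voom), other scalings and filters and each animal left out were alternatives. No replicates looked like the same library: within groups, the lowest median ratio of the observed to the sampling variance was 4 over 30 pairs and 3.41 over 12. All members are named; a list's genes past the threshold are named, 3 with values, or otherwise its gene of lowest p. A count is limited by depth, and p-values measure the spread between animals. Positions and exon lengths are from a GRCm38 annotation and upstream stretches from RefSeq, GRCm38.p6. In the second table Il1f6 is listed as Il36a. Python 3.11.15 was used for positions and plots.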

Additional observations from a re-analysis of the deposited data

Results flagged for a closer look

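Over 68 groups of values of members, named pathway genes and ratios, 6 held a kidney far from the others of its group. The cutoff used flags about 1 group in 20 when values are normally distributed. Most of these values were untransformed CPM, some from few counts, so that rate need not hold and the 6 are not read as an excess. In LOY animal 10, 3 members stood apart: Il1f6 was 8.44 CPM (next 2.59), Il1rn 8.61 CPM (next 4.03) and Il1r1 23.96 CPM (next 15.4). The same kidney had the highest Spp1 of its group, at 6690 CPM. In LOY animal 14, Il1rl1 was low, at 0.592 CPM (next 1.53). In Control animal 17, Il7r was high, at 2.26 CPM (next 1.25). In ABT-263 animal 16, Il1f6 was 5.03 CPM (next 0.462).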

How the results depend on the processing

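No paired analysis was possible because the groups compared share no animal number. In LOY against Control the count of members past the threshold was 2; it was 0 with library totals alone, with a term for animal numbers above 10, among the animals numbered above 10 alone and without LOY animals 8 and 10 together (an alternative added after seeing the data), 1 with no filter, 3 with DESeq2, with limma-voom and at an adjusted p of 0.1 (Il1rn added), and 0 to 3 with 1 kidney left out. The pathway count was 7; it was 4 with library totals alone, 14 with DESeq2, with limma-voom and at an adjusted p of 0.1 (where 866, 1062 and 549 of all 14978 genes passed, or 5.78%, 7.09% and 3.67%), 0 with the number term, 11 above number 10 alone (451 genes in all), 1 without LOY animals 8 and 10, and 0 to 12 with 1 kidney left out. Over all genes the count was 176, 1 without LOY animal 10, 0 without Control animal 16 or 17, and 607 without Control animal 3. The log2 difference of Il1f6 in this comparison stayed between 1.81 and 2.72 and that of Il1b between 1.28 and 1.52 over 11 alternatives, and between 1.96 and 2.98 and between 1.24 and 1.56 with 1 kidney left out. That of Il1rap ran from -0.06 to 0.13. In ABT-263 against control compound the counts of members and of pathway genes were 0 under every alternative run. Differences that turned were Il1f6 at -1.22 with limma-voom and Il1f6, Il1r1 and Il1rap with 1 kidney left out, when they ran from -1.73 (without ABT-263 animal 16) to 0.659, from -0.057 (without ABT-263 animal 15) to 0.158, and from -0.0077 (without ABT-263 animal 17) to 0.201. The Il1rn to Il1b ratio difference ran from -0.34 to 0.31 with 1 kidney left out, and that of Il1r2 to Il1r1 from -0.43 to 0.31, and it was 0.0047 with 2 added to each count. The cause of these changes was not tested. The depth gives Il1f6 and Il1r2 few counts, so small differences in them were not detectable here.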

Other observations

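Il1rl2, which encodes the receptor of IL-36, had 0.66 to 1.63 CPM in Control kidneys. In LOY kidneys it was 0.594, 0.592, 0.497 and 0.623 CPM in animals 5, 8, 9 and 10 and 1.63 and 1.80 CPM in animals 14 and 18, with a log2 difference of -0.47 ± 0.39 (edgeR adjusted p = 0.457). The genes were named after their values were seen. Of the low-count IL-1-induced genes, Il6 had 0 to 3 counts per Control kidney and 2 to 17 per LOY kidney, and Saa3 had 0 in every Control kidney and up to 39 in LOY animal 10. In the ligand list, Il36g had 1 count over the Control kidneys and 14 over the LOY kidneys, of which 11 were in LOY animal 10. In the second table it had 22 counts with control compound, of which 15 were in 1 kidney, and 1 with ABT-263. There Il1a had 24 and 22.

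Genes whose levels went most closely with a member, after the group mean was taken off, were ranked among 14411 genes over the 12 kidneys of the first table, and the highest of so many are high in part by choice. With Il1f6 they were Cldn7, Pold4 and Kif2c (Pearson's r 0.918, 0.917 and 0.914), which gave 0.771, 0.537 and 0.544 over the 8 kidneys of the second. With Il33 they were Ets1, Bgn and Ddr2 (0.954, 0.952 and 0.947), which gave -0.378, -0.213 and -0.618. With Il1b they were Sash3, Tert and Klrk1 (0.869, 0.860 and 0.859), with -0.198, -0.379 and -0.445 in the second table. With Il1rn they were Cyb5r1 and Acap3 (0.935 and 0.926), with 0.182 and 0.183, and Gcfc1 (0.906), which was not matched by symbol. These are descriptions over kidneys that share a table, with no test.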
